A study of Mus musculus with 12 samples.

Results

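Semaphorins, their plexin receptors and the neuropilin co-receptor were followed as mRNA in sorted mouse lung group 2 innate lymphoid cells (ILC2s). The 10 genes were chosen by name: the ligands Sema6d, Sema4a, Sema4d, Sema4b and Sema7a, the receptors Plxna1, Plxnc1, Plxnd1 and Plxnb2, and the co-receptor Nrp1. They are 10 of the 24346 genes in each of the 12 deposited files and 10 of the 31 semaphorin, plexin and neuropilin genes found there. The comparisons ask which of these genes ILC2s express, and whether the level of any of them differs between cells of WT mice and of mice labelled as deficient in Sema6d.

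The study sorted ILC2s from lung as lineage-negative cells carrying Thy1.2 and ST2, and sequenced RNA from 4 groups of 3 libraries. The labels give the strain as C57BL/6 and the study's methods as C57BL/6J, with an age of 7 to 12 weeks. WT mice and mice labelled 6DKO (Sema6d-/-, deleted in the whole body and not in ILC2s alone) received either PBS or IL-33, an epithelial alarmin that activates ILC2s, through the nose for 3 days. The labels give 50 ng of IL-33 and a SMART-Seq HT kit with Nextera libraries, whereas the study's methods give a higher dose and a stranded mRNA kit, and the files do not settle either difference. The sources used do not say which exons of Sema6d were deleted. Values are FPKM, in which the fragments mapped to a gene are divided by its transcript length and by the mapped total, so levels can be compared between genes. The labels do not say whether the libraries came from separate animals, so every p-value measures the spread between these libraries.

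Semaphorins are membrane-bound or secreted proteins, first known as axon guidance cues, that bind plexins on neighbouring cells and act on the cytoskeleton and on integrins through small GTPases. Neuropilins bind secreted semaphorins and vascular growth factors and act beside plexins. In the immune system, several class 4, 6 and 7 semaphorins serve as costimulatory or migration signals between T cells, myeloid cells and dendritic cells, and transmembrane semaphorins can also signal back into the cell that carries them.

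Of the ILC2 marker list all 14 genes were in the files and above 1 FPKM in 11 libraries, with 13 in 6DKO PBS replicate 1, where Il13 was at 0.436 FPKM. Il13 ran from there to 37.4 FPKM, and the other 13 genes stood at 18.98 FPKM or more in every library. For the whole list the summed level was 6668 to 10090 FPKM, and the most abundant was Id2 in 11 libraries and Areg in 6DKO PBS replicate 3. Natural killer or macrophage markers stood apart in 3 libraries, all labelled 6DKO. In 6DKO PBS replicate 2 all 9 natural killer markers were above 1 FPKM with a sum of 810.6 FPKM, of which Gzma made up 652.6 FPKM, against sums of 0 to 43.2 FPKM in the other libraries. The next highest was 6DKO IL-33 replicate 1, with Gzma at 37.2 FPKM and Ncr1 at 2.61 FPKM. The macrophage marker sum of 6DKO PBS replicate 2 was 228.6 FPKM (7 of 16 genes above 1 FPKM, most abundant Lyz2 at 111.9 FPKM). That library also had an epithelial sum of 414.7 FPKM (Ager 198.8 FPKM) and an endothelial sum of 65.5 FPKM. Macrophage sums were 437 FPKM in 6DKO IL-33 replicate 2 and 151.1 FPKM in replicate 3, most of it Chil3 at 393.9 and 83.1 FPKM, and 1.10 to 17.3 FPKM in the remaining 9 libraries. 6DKO IL-33 replicate 3 also had an epithelial sum of 144.8 FPKM, of which Sftpc made up 97.2 FPKM. An alternative chosen after the data were seen leaves out 3 libraries, 6DKO PBS replicate 2 and 6DKO IL-33 replicates 2 and 3. Its values stand beside some of the results below. It keeps 6DKO IL-33 replicate 1 as the only library of that group, so differences that involve 6DKO IL-33 then rest on 1 library. That library had natural killer markers too, so the alternative is not free of them. Of the T cell list, 9 of 12 genes were in the files and summed to 203.7 to 483.1 FPKM, most of it Cd3g at 189.7 to 479.8 FPKM in WT and 6DKO alike, while Cd4 was listed at 0 throughout.

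**Figure D1:**
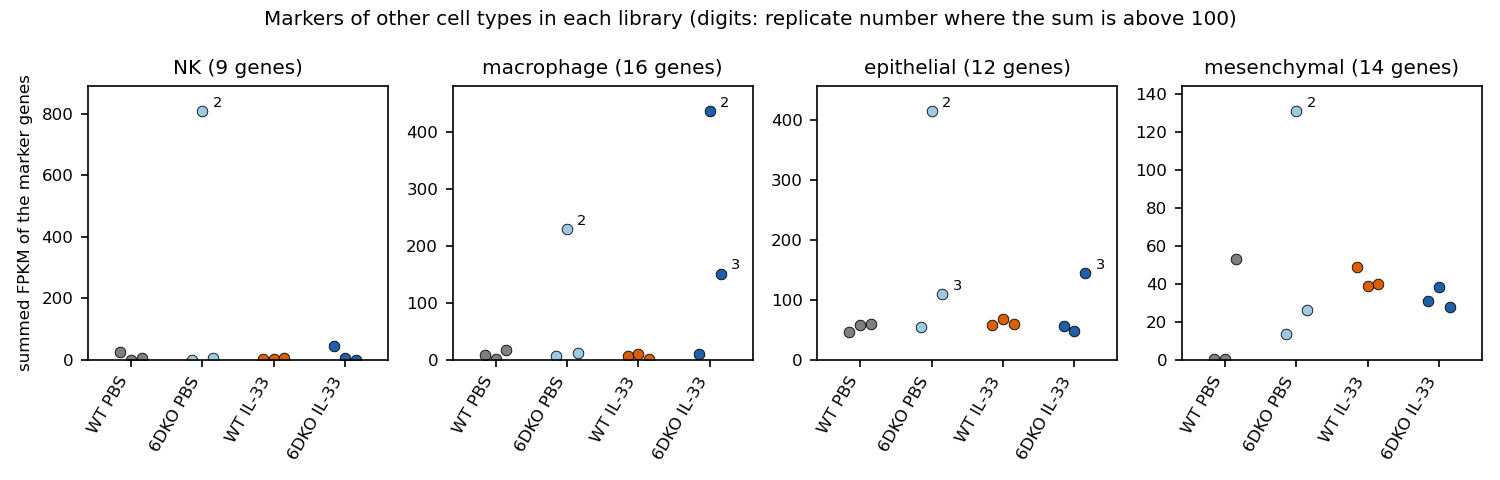
Summed FPKM (vertical axis) of natural killer, macrophage, epithelial and mesenchymal marker genes in each of the 12 libraries, by group (horizontal axis). 6DKO PBS replicate 2 stands highest for natural killer markers at 810.6 FPKM, and 6DKO IL-33 replicate 2 highest for macrophage markers at 437 FPKM.

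The files give no read counts. More genes were above 1 FPKM in the IL-33 libraries, 9917 to 10081, than in the PBS libraries, 7696 to 9287. Among the 3617 genes with a mean of 5 to 20 FPKM, each PBS library had no signal (FPKM of 0) for 4.67% to 17.7%, and each IL-33 library for 0.691% to 1.38%. Among the 1082 genes with a mean above 100 FPKM, 2.5% to 3.42% were at 0 in each library, IL-33 libraries included. A value of 0 is therefore written as listed at 0, not as absent.

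Sema6d, the class 6 transmembrane ligand that the mutant mice were made to lack, was still measured in every 6DKO library. Its level was 27.5, 46.1 and 37.5 FPKM in WT PBS replicates 1, 2 and 3 and 29.0, 22.9 and 19.8 FPKM in the 6DKO PBS replicates. With IL-33 it was 19.7, 35.5 and 28.7 FPKM in WT and 15.4, 13.6 and 13.8 FPKM in 6DKO. All 3 6DKO IL-33 libraries lay below all 3 WT IL-33 libraries, while 6DKO PBS replicate 1 lay above WT PBS replicate 1, so the PBS groups overlapped. FPKM is computed over the whole gene and does not show whether the deleted exons are missing from the transcripts counted.

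The group means of Sema6d were 37.0 ± 9.27 FPKM in WT PBS, 28.0 ± 7.95 FPKM in WT IL-33, 23.9 ± 4.67 FPKM in 6DKO PBS and 14.25 ± 1.002 FPKM in 6DKO IL-33 (SD, n = 3 libraries each). In that order the neighbouring groups overlapped, except that 6DKO IL-33 lay below 6DKO PBS. The ratio of 6DKO to WT means was 0.509 with IL-33 and 0.646 with PBS. On the log2 scale the genotype difference was -0.89 (SE 0.32) with IL-33 and -0.60 (SE 0.32) with PBS, with each 6DKO library below the WT mean of its treatment, counted here and below on that scale. Neither passed the limma test (adjusted p = 1 and 0.463). Their ranges over the alternatives were 0.0744 to 1 with IL-33 and 0.322 to 0.955 with PBS. Averaged over both treatments the difference was -0.74 (SE 0.22), 6 of 6 6DKO libraries were below the WT mean of their treatment, and the limma adjusted p was 0.518 (0.223 to 1 over the alternatives). For this single gene, a two-sided exact permutation test with genotype permuted within each treatment gave p = 0.01, the smallest possible being 0.005, and 0.005 to 0.02 over 15 alternatives.

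Without the 3 libraries with natural killer or macrophage markers, the Sema6d difference was -0.78 with IL-33, -0.575 with PBS and -0.68 over both treatments. The 6DKO IL-33 group was then 1 library. In bulk samples such as these, fewer cells carrying a transcript and less of it per cell cannot be told apart. Mesenchymal cells were among the marker lists beside Sema6d: all 14 genes were in the files, their sum was 0.114 to 131 FPKM, highest in 6DKO PBS replicate 2 through Gsn at 85.05 FPKM, and no library had more than 2.63 FPKM of any of the 6 defining genes.

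The sums of 3 marker lists did not overlap between the genotypes under IL-33, as Sema6d did not. The mesenchymal sum was 48.7, 38.8 and 39.9 FPKM in WT IL-33 and 30.9, 38.0 and 27.5 FPKM in 6DKO IL-33. The dendritic cell sum, highest through Cd74, was 549.1, 626.2 and 1160 FPKM in WT IL-33 and 1793, 1352 and 1628 FPKM in 6DKO IL-33. With PBS it was 22.2, 105.7 and 199.7 FPKM in WT and 355.9, 82.4 and 249 FPKM in 6DKO, which overlapped. Of its 12 genes 6 were tested, limma called 0 for genotype, and at an unadjusted p under 0.05 there were 0 of 6 under IL-33 (against 1.83% of all genes), 2 higher and 1 lower under PBS (12.9%), and 3 higher over both treatments (7.08%). The third list was that of macrophages, with 6.77, 10.35 and 1.10 FPKM in WT IL-33 and 10.5, 437 and 151.1 FPKM in 6DKO IL-33. Of its 16 genes 9 were tested, and limma called 0 for genotype. At an unadjusted p under 0.05, 2 were higher under IL-33 (against 1.83% of all genes). Under PBS 1 was higher (12.9%), and over both treatments 3 were higher (7.08%). By the study's methods the sort took CD45-positive cells, mesenchymal cells were those without CD45, and cells carrying F4/80 or NK1.1 were meant to be left out. The part of these genes in the Sema6d difference was not tested.

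Sema4a, a class 4 transmembrane semaphorin known as a costimulatory ligand that binds plexins of the B and D classes and Tim-2, was the most abundant gene of the family in all 4 groups. The WT PBS libraries had 188, 116.5 and 186.1 FPKM, and the 6DKO PBS libraries 111.3, 128.2 and 108.6 FPKM. With IL-33 it stood at 56.1, 53.4 and 61.3 FPKM in WT and 57.65, 55.0 and 39.2 FPKM in 6DKO. Every IL-33 library lay below every PBS library, in both genotypes. WT and 6DKO overlapped under PBS and again under IL-33.

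Sema4a fell with IL-33 in both genotypes. The IL-33 to PBS ratio of means was 0.348 in WT and 0.436 in 6DKO. The log2 difference was -1.47 (SE 0.23, limma adjusted p = 0.00455, lower in 3 of 3 libraries) in WT and -1.20 (SE 0.23, adjusted p = 0.0195, lower in 3 of 3) in 6DKO. The exact permutation test gave p = 0.1 in each genotype, the smallest that 3 libraries against 3 allow. In WT the call held in 15 of 15 alternatives, with adjusted p from 0.00223 to 0.0264. In 6DKO it held in 12 of 16. It was lost without 6DKO IL-33 replicate 2 (log2 -1.27, adjusted p = 0.0590), without 6DKO IL-33 replicate 3 (-1.03, 0.0865) and without a trend in the variance (-1.20, 0.0588). It was also lost without the 3 libraries with natural killer or macrophage markers (log2 -0.92), which left 1 library in 6DKO IL-33. The difference between the genotypes in this response was 0.28 on the log2 scale (limma adjusted p = 0.912 for the interaction, 0.730 to 1 over the alternatives; exact permutation p = 0.385).

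Several other measures moved with IL-33 beside Sema4a. In WT limma called 3 of the 14 ILC2 markers (2 higher, 1 lower), and in 6DKO 3 (1 higher, 2 lower). Of the 6 dendritic cell genes tested, 2 were called in each genotype, as higher. The granulocyte list had 1 of 3 called in WT, and the epithelial list 1 of 9 in 6DKO, each as lower. Of all genes tested, 4.26% were called in WT and 2.84% in 6DKO. The dendritic cell list, 12 of 12 genes in the files, summed to 22.2 to 355.9 FPKM in PBS libraries and 549.1 to 1793 FPKM in IL-33 libraries, the most abundant being Cd74 in every IL-33 library, while Clec9a was listed at 0 throughout and no defining gene passed 11.4 FPKM. The granulocyte list, 11 of 12 genes in the files, summed to 51.6 to 101.3 FPKM with PBS and 27.4 to 48.8 FPKM with IL-33, most abundant Cpa3, with S100a8, S100a9, Epx and Mcpt8 listed at 0 throughout. The erythroid and platelet list, 8 of 9 genes in the files, summed to 12.8 to 45.4 FPKM with PBS and 3.80 to 10.2 FPKM with IL-33, most abundant Hba-a1 or Hba-a2, with Pf4 and Ppbp listed at 0 throughout. Epcam stood at 16.4 to 54.0 FPKM with PBS and 0 to 8.71 FPKM with IL-33. Cd79b stood at 0, 0.139 and 0 FPKM in WT PBS and 26.8, 14.4 and 11.97 FPKM in WT IL-33 (log2 4.08, adjusted p = 0.0229), and at 0, 0 and 8.90 FPKM in 6DKO PBS and 2.76, 18.4 and 4.67 FPKM in 6DKO IL-33 (log2 1.79, adjusted p = 0.370). Of the macrophage list, Cd68 was called for IL-33 in 6DKO (log2 2.08, adjusted p = 0.0279), at 0.240, 0 and 0 FPKM with PBS and 4.87, 4.15 and 2.096 FPKM with IL-33. The study's lineage antibodies for ILC2s included those to CD11c, Gr-1 and TER-119, so cells carrying these were meant to be left out of the sort. The part of these genes, and of the lower number of genes detected in PBS libraries, in the Sema4a difference was not tested.

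Between genotypes Sema4a differed by -0.46 (SE 0.23, limma adjusted p = 0.441, lower than the WT mean in 3 of 3 libraries) with PBS and by -0.18 (SE 0.23, adjusted p = 1, lower in 2 of 3) with IL-33. The exact permutation p over both treatments was 0.085, with 0.025 to 0.165 over 15 alternatives. It passed 0.05 in 2 of these, the lowest value being without WT PBS replicate 2. Without the 3 libraries with natural killer or macrophage markers, the IL-33 difference was 0.020 (SE 0.31).

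Sema4d, a class 4 ligand of plexin-B receptors and of CD72, had 34.7, 25.9 and 23.5 FPKM in WT PBS, with 25.7, 33.9 and 53.2 FPKM in 6DKO PBS. With IL-33 it stood at 60.3, 37.95 and 52.9 FPKM in WT and 47.3, 42.85 and 37.4 FPKM in 6DKO. The WT IL-33 libraries all lay above the WT PBS libraries, whereas the 6DKO groups overlapped because 6DKO PBS replicate 3 was high. The IL-33 difference was 0.82 (SE 0.31) in WT, with limma adjusted p = 0.187 (0.147 to 0.476 over the alternatives) and 3 of 3 libraries higher, and 0.23 (SE 0.31, adjusted p = 0.784, higher than the PBS mean in 3 of 3) in 6DKO. Neither passed the test, nor did the difference between them (-0.59, adjusted p = 0.897 for the interaction).

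Sema4b, another class 4 transmembrane semaphorin, was weak. It was listed at 0 in WT PBS replicate 1 and stood at 6.73 FPKM in replicate 2 and 2.101 FPKM in replicate 3, while the 6DKO PBS libraries had 0.311, 1.14 and 7.37 FPKM. With IL-33 it lay between 2.95 and 3.41 FPKM in all 6 libraries. The PBS values spanned the IL-33 values in both genotypes. In WT PBS replicate 1, where Sema4b was listed at 0, 31.8% of the 2892 genes with a mean within 2-fold of it were also listed at 0. Sema7a, a lipid-anchored semaphorin that binds plexin-C1 and beta1 integrins, was listed at 0 in all 12 libraries and could not be tested.

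Plxna1 encodes plexin-A1, the receptor through which Sema6D is known to act on dendritic cells. It was the most abundant plexin on average, at 11.7, 1.42 and 6.66 FPKM in WT PBS, 10.2, 9.91 and 4.16 FPKM in 6DKO PBS, 7.56, 9.12 and 5.03 FPKM in WT IL-33 and 3.49, 8.13 and 7.24 FPKM in 6DKO IL-33. All 4 groups overlapped, and the lowest and highest libraries were both WT PBS. The group means were 6.60 ± 5.16, 8.09 ± 3.41, 7.24 ± 2.06 and 6.29 ± 2.46 FPKM (SD, n = 3). The genotype difference was 0.47 (SE 0.63, limma adjusted p = 0.784, higher than the WT mean in 2 of 3 libraries) with PBS and -0.21 (SE 0.63, adjusted p = 1, lower in 1 of 3) with IL-33. Leaving out WT PBS replicate 2 turned the PBS difference to -0.20, and leaving out 6DKO IL-33 replicate 1 turned the IL-33 difference to 0.11. Without the 3 libraries with natural killer or macrophage markers the IL-33 difference was -0.84, with 1 library in 6DKO IL-33. The PBS difference was then 0.30.

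Plxnc1, which encodes the plexin that binds Sema7A, stood at 3.99, 4.34 and 3.00 FPKM in WT PBS. In 6DKO PBS it was listed at 0 in replicate 1 and stood at 2.93 and 3.65 FPKM in the others. With IL-33 it stood at 3.58, 5.77 and 4.02 FPKM in WT and 4.11, 4.84 and 5.24 FPKM in 6DKO. The 6DKO IL-33 libraries all lay above the 6DKO PBS libraries, and WT and 6DKO overlapped under each treatment. The log2 difference for IL-33 in 6DKO was 1.115 (SE 0.58, limma adjusted p = 0.402, higher in 3 of 3; 0.215 to 0.835 over the alternatives). It ranged from 0.42 to 2.202 over the alternatives and did not pass the test. In 6DKO PBS replicate 1, 34.4% of the 3104 genes with a mean within 2-fold of Plxnc1 were also listed at 0.

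Plxnd1 encodes a plexin best known as the receptor of Sema3E on endothelial cells and thymocytes. It stood at 2.32, 0.267 and 5.14 FPKM in WT PBS and 0.607, 1.17 and 2.91 FPKM in 6DKO PBS. With IL-33 it stood at 1.47, 3.23 and 1.62 FPKM in WT and 2.58, 1.04 and 1.85 FPKM in 6DKO. All 4 groups overlapped. Plxnb2, a receptor of class 4 semaphorins, was listed at 0 in 9 of 12 libraries and reached 1.35 FPKM in WT PBS replicate 3, 0.338 FPKM in WT IL-33 replicate 2 and 0.0740 FPKM in 6DKO IL-33 replicate 3.

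Nrp1, the co-receptor of class 3 semaphorins and of vascular endothelial growth factor, was abundant in every library. Its WT PBS libraries had 45.6, 23.0 and 31.5 FPKM and its 6DKO PBS libraries 41.8, 50.1 and 57.0 FPKM. With IL-33 it stood at 37.8, 36.3 and 36.0 FPKM in WT and 34.5, 43.3 and 37.3 FPKM in 6DKO. The PBS groups overlapped where WT PBS replicate 1 lay above 6DKO PBS replicate 1, and the other values of 6DKO PBS lay above all WT PBS libraries. The IL-33 groups overlapped.

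The PBS ratio of 6DKO to WT means of Nrp1 was 1.49, from 49.6 ± 7.59 against 33.4 ± 11.4 FPKM (SD, n = 3). The log2 difference was 0.60 (SE 0.27) with 3 of 3 libraries above the WT mean, and it did not pass the limma test (adjusted p = 0.384, 0.168 to 0.951 over the alternatives). With IL-33 the difference was 0.056 (SE 0.27, adjusted p = 1, higher than the WT mean in 2 of 3). Over both treatments the exact permutation p was 0.09, with 0.04 to 0.2 over 15 alternatives. It passed 0.05 in 1 of these, without WT PBS replicate 1. Without the 3 libraries with natural killer or macrophage markers the PBS difference was 0.59. The IL-33 difference was then -0.085, with 1 library in 6DKO IL-33.

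**Figure D2:**
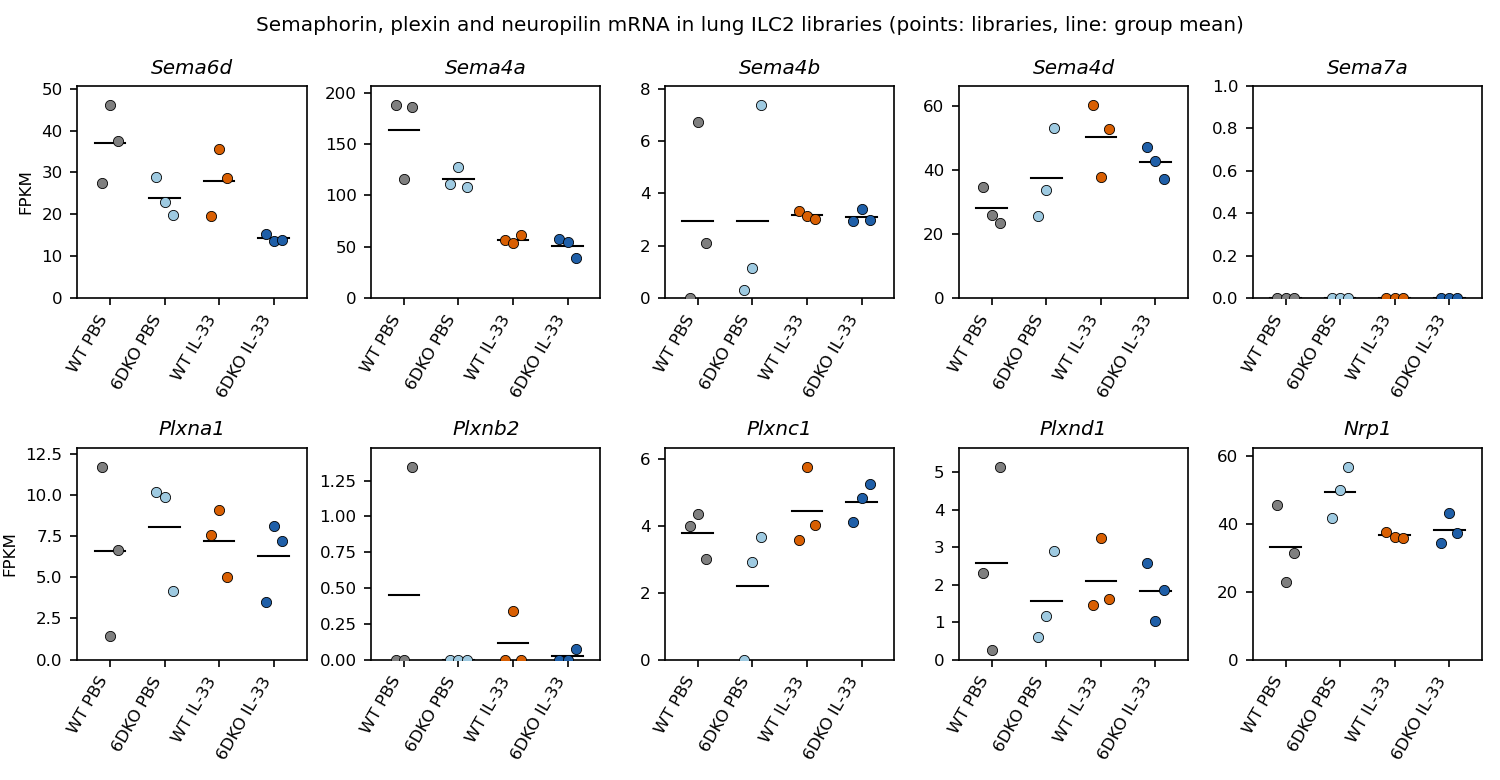
FPKM (vertical axis) of the 10 genes in each of the 12 libraries (points) by group (horizontal axis), with group means as lines. Sema4a is lower in all 6 IL-33 libraries than in all 6 PBS libraries, Sema6d is lower in 6DKO IL-33 than in WT IL-33, and Sema7a is listed at 0 throughout.

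The members fell into an abundant and a scarce set. In WT PBS the order of the means was Sema4a, Sema6d, Nrp1, Sema4d, Plxna1, Plxnc1, Sema4b, Plxnd1 and Plxnb2, with Sema7a listed at 0. Sema4a lay above Sema6d in all libraries of that group, and Sema4d above Plxna1, whereas the other neighbours overlapped. In 6DKO PBS the 4 leading genes were Sema4a, Nrp1, Sema4d and Sema6d, the last 3 of them overlapping from each to the next. With IL-33 the leading order was Sema4a, Sema4d, Nrp1 and Sema6d in both genotypes. Sema4a and Sema4d overlapped there in both genotypes, Sema4d overlapped Nrp1 in 6DKO but not in WT, and Sema6d lay below Nrp1 in both. Plxna1 ranked next after these 4 genes in every group and lay below all their libraries.

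Set against the 11396 genes tested, 90.2% had a lower mean than Sema4a, 78.95% than Sema4d, 78.9% than Nrp1 and 71.6% than Sema6d. For Plxna1 the share was 42.85%, for Plxnc1 29.3%, for Sema4b 25.3% and for Plxnd1 18.2%. The highest levels were those of 3 semaphorins and Nrp1, while 15 of the 20 semaphorins had a mean under 1 FPKM and Sema4b lay below Plxna1 and Plxnc1. Summed over the 20 semaphorin genes the level was 104 to 255 FPKM per library, and over the 9 plexin genes 6.03 to 18.5 FPKM. Sema4a made up 56.5% to 74.9% of the semaphorin sum in PBS libraries and 37.8% to 44.6% in IL-33 libraries, without overlap. Nrp1 made up 93.6% to 99.95% of the neuropilin sum.

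Of the 21 family genes outside the members, 4 had a mean of at least 1 FPKM in some group. Sema4f was listed at 0 in 4 PBS libraries, stood at 7.01 FPKM in WT PBS replicate 2 and 10.45 FPKM in 6DKO PBS replicate 2, and lay between 5.67 and 8.76 FPKM in all IL-33 libraries. Sema3f was above 0 in 2 libraries, at 4.50 FPKM in WT PBS replicate 3 and 5.62 FPKM in 6DKO PBS replicate 2, which also carried natural killer markers. Sema4c reached 2.77 FPKM and Nrp2 3.10 FPKM in their highest libraries. A further 12 stayed below 1 FPKM in every group mean, and 5 (Sema3b, Sema3c, Sema4g, Sema5b and Plxna4) were listed at 0 in all libraries. Among the remaining class A plexins, the highest library had 0.889 FPKM of Plxna3 and 0.0226 FPKM of Plxna2.

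**Figure D3:**
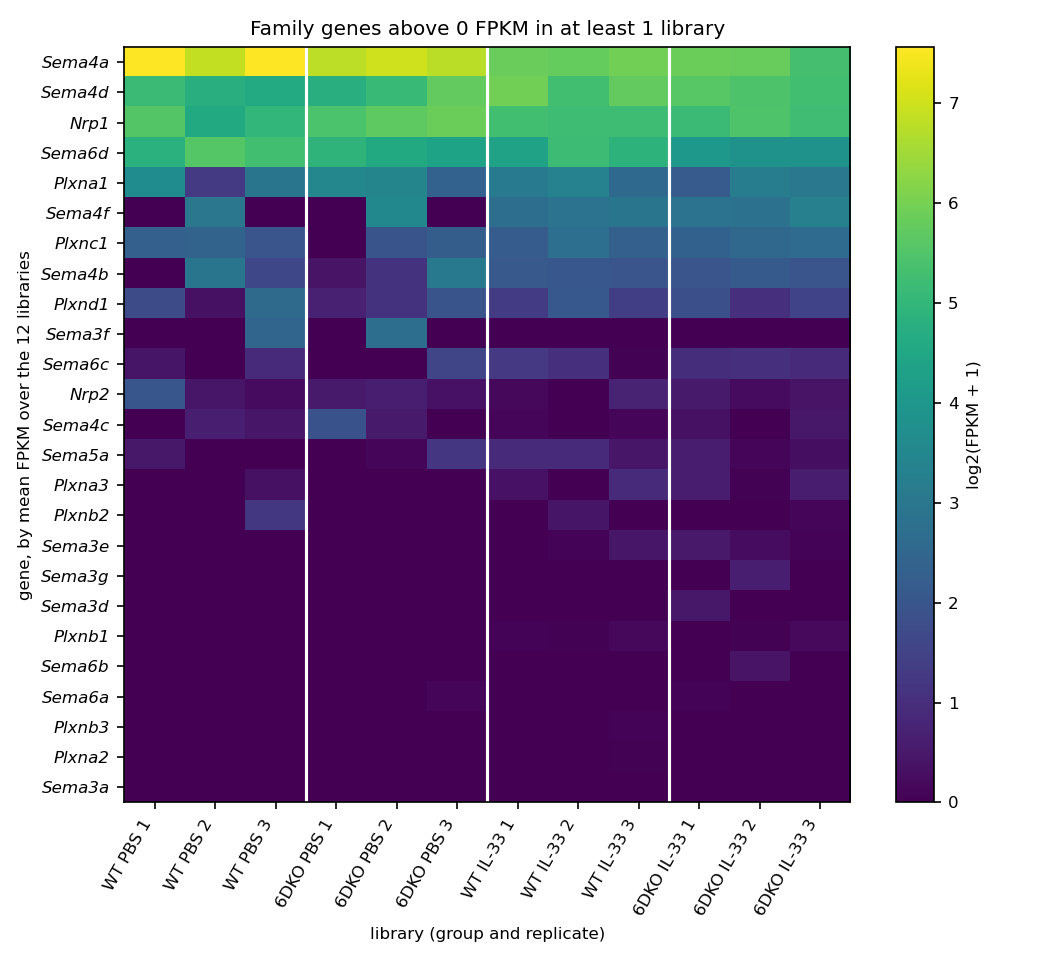
Level of each family gene above 0 in at least 1 library, as log2(FPKM + 1) by colour, with genes by mean level (vertical axis) and the 12 libraries by group (horizontal axis). Sema4a, Sema4d, Nrp1 and Sema6d are high in every library, and Sema4f is listed at 0 in 4 PBS libraries.

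The libraries labelled 6DKO were next compared with WT over all members, to ask whether another semaphorin, plexin or neuropilin mRNA differed with the genotype label. Of the 10 members 9 could be tested. With IL-33, limma called 0 of 9 at an adjusted p under 0.05, against 0.00878% of all genes tested, and at an unadjusted p under 0.05 it called 1 (Sema6d), against 1.83%. With PBS it called 0 of 9, against 0.553% of all genes, and 1 (Nrp1) at an unadjusted p under 0.05, against 12.9%. Over both treatments it called 0 of 9, against 0.123%, and 1 (Sema6d) at an unadjusted p under 0.05, against 7.08%. The 3 libraries of each group did not overlap for 1 of 9 members with IL-33 (Sema6d), against 14.2% of all genes, and for 0 of 9 with PBS, against 8.63%.

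Apart from Sema6d, the genotype differences of the members under IL-33 ran from -0.22 (Sema4d) to 0.085 (Plxnc1) on the log2 scale. Under PBS they ran from -0.85 (Plxnc1) to 0.60 (Nrp1). The Plxnc1 value was -0.15 without 6DKO PBS replicate 1, where it is listed at 0, and -1.26 without replicate 3. The median over the 9 members was -0.13 with IL-33 and -0.31 with PBS, where the medians over all genes were 0.0059 and 0.0035. Standard errors were 0.23 to 0.79, largest for Sema4b, Plxna1 and Plxnd1. Differences near a member's own standard error could not be resolved, in abundant and scarce members alike. Larger ones were not called either, such as Sema6d at -0.89 (SE 0.32) with IL-33 and Nrp1 at 0.60 (SE 0.27) with PBS. The absence of a call therefore does not show that a member is unchanged. Leaving out the 3 libraries with natural killer or macrophage markers left 1 library in 6DKO IL-33, so differences under IL-33 rest on that library. Under IL-33 the differences apart from Sema6d then ran from -0.84 (Plxna1) to 0.25 (Plxnd1), with -0.064 for Sema4d, and under PBS from -1.14 (Plxnc1) to 0.59 (Nrp1).

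IL-33 was compared with PBS in each genotype, to ask which of the members change when ILC2s are activated. In WT limma called 1 of 9 members, Sema4a, lower, against 4.26% of all genes, and in 6DKO 1 of 9, Sema4a again, against 2.84%. The libraries did not overlap for 2 of 9 members in WT (Sema4a and Sema4d), against 25.1% of all genes, and for 3 of 9 in 6DKO (Sema6d, Sema4a and Plxnc1), against 22.7%. The non-overlapping share of the members was 22.2% in WT, near that of all genes, and 33.3% in 6DKO, above it. Each call count rests on 1 gene, and no difference from all genes was tested. The median log2 difference of the members was 0.18 in WT and 0.034 in 6DKO.

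All genes together moved by a median of 0.16 in WT and 0.14 in 6DKO with IL-33 as deposited, and by -0.044 and -0.020 after quantile normalization, under which Sema4a remained called in both genotypes. Of all genes called, 303 were higher and 183 lower in WT (62.35% higher), and 199 were higher and 125 lower in 6DKO (61.42%). After quantile normalization these splits were 248 and 231 (51.77%) and 136 and 134 (50.37%).

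Sema6d with IL-33 differed by -0.40 (SE 0.32, limma adjusted p = 0.572, lower than the PBS mean in 3 of 3 libraries) in WT and by -0.69 (SE 0.32, adjusted p = 0.326, lower in 3 of 3) in 6DKO. Nrp1 differed by 0.19 in WT and -0.36 in 6DKO. Apart from Plxnc1, given above, the scarce members Sema4b, Plxna1, Plxnd1 and Plxnb2 had IL-33 differences between -0.30 and 0.53. Their limma adjusted p was 0.781 or more. The sign for Plxnd1 was negative after quantile normalization in both genotypes, at -0.81 and -0.64.

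The interaction asks whether the response to IL-33 differs between the genotypes. For it limma called 0 of 9 members, against 0.0176% of all genes, and 0 at an unadjusted p under 0.05, against 5.58%. The largest interaction terms were 0.93 for Plxnc1 and -0.68 for Plxna1. Leaving out 1 library gave 0.23 (without 6DKO PBS replicate 1) to 1.34 for Plxnc1 and -1.21 to -0.0064 (without WT PBS replicate 2) for Plxna1, and the adjusted p of the 9 members ran from 0.897 to 0.9996.

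**Figure D4:**
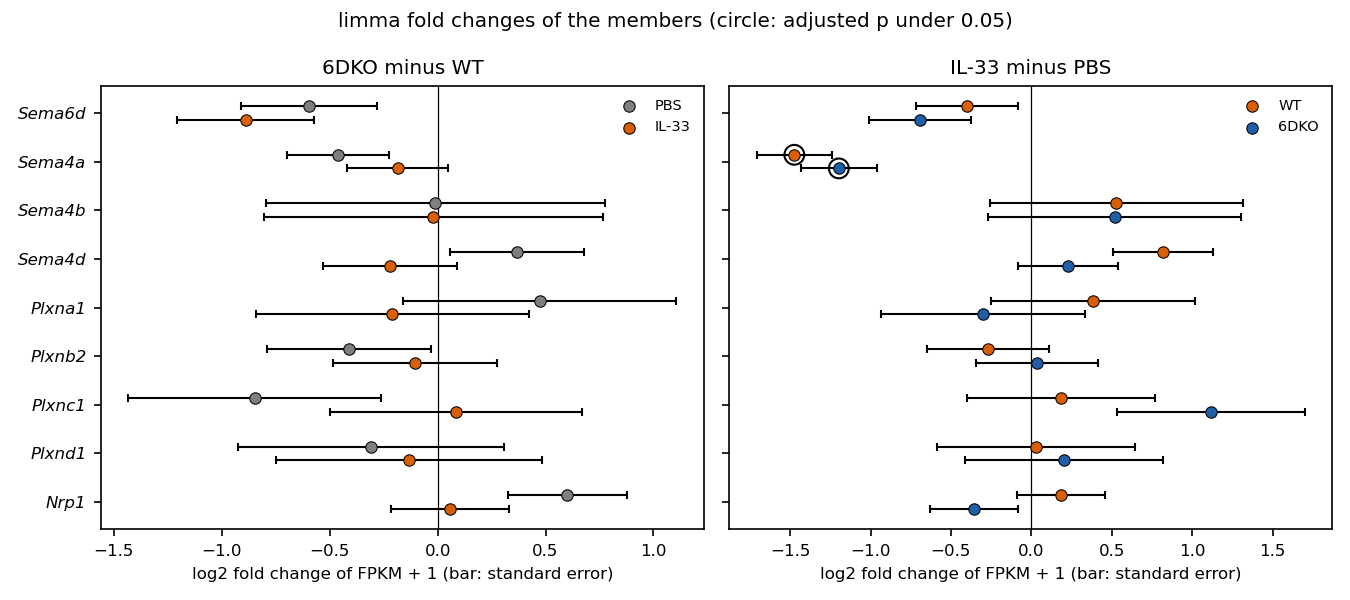
Log2 fold change of FPKM + 1 (horizontal axis, bars are standard errors) of the 9 tested members (vertical axis) for 6DKO minus WT (left) and IL-33 minus PBS (right). Circles mark an adjusted p under 0.05, which Sema4a alone has, at -1.47 in WT and -1.20 in 6DKO.

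Among the 11 co-receptors and alternative receptors listed, 7 had a mean under 1 FPKM, 4 were tested and 0 were called by limma in the 6 comparisons. Cd72, the lymphocyte receptor of Sema4D, stood at 12.6 to 74.5 FPKM and Itgb1, the beta1 integrin chain that binds Sema7A, at 26.5 to 125.7 FPKM. Trem2, Met and Mst1r were listed at 0 in all libraries, and Tyrobp, the adaptor of Trem2, stood at 653.1 FPKM in 6DKO PBS replicate 2 and at most 25.9 FPKM elsewhere. At an unadjusted p under 0.05 this list had 1 gene for genotype under PBS, against 12.9% of all genes, 1 for IL-33 in WT, against 17.6%, and 0 in the other comparisons. All 5 neuropilin ligands were tested and 0 called, with 2 at an unadjusted p under 0.05 for IL-33 in WT, against 17.6% of all genes, and 0 elsewhere. Vegfa stood at 3.92, 8.39 and 5.56 FPKM in WT PBS, at 0, 15.1 and 4.94 FPKM in 6DKO PBS and at 0.752 to 2.79 FPKM in IL-33 libraries.

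Of the 38 genes that carry plexin signals to the cytoskeleton, 34 were tested. The small GTPase Rac2 stood at 405.1 to 711.5 FPKM, Rhoa at 208.8 to 312.6 FPKM and the actin-severing protein gene Cfl1 at 786 to 1123 FPKM. For IL-33 in WT limma called 1 of the 34, against 4.26% of all genes. This was Crmp1, which encodes a collapsin response mediator protein known from semaphorin signalling in neurons. Crmp1 was at 0, 0.0498 and 0 FPKM in WT PBS and 18.9, 17.7 and 23.4 FPKM in WT IL-33, and at 0, 10.9 and 5.37 FPKM in 6DKO PBS and 17.3, 16.2 and 11.1 FPKM in 6DKO IL-33. It was higher with IL-33 in all libraries of both genotypes. The mean of Crmp1 was 10.07 FPKM. Of genes with a mean of 5 to 20 FPKM, WT PBS replicates 1, 2 and 3 listed 13%, 14.8% and 4.67% at 0. The WT IL-33 replicates listed 1.22%, 1.02% and 1.08% of them at 0. The part of this uneven detection in the Crmp1 values was not tested. The log2 difference was 4.36 (SE 0.74, adjusted p = 0.00689) in WT and 1.88 (SE 0.74, adjusted p = 0.249) in 6DKO, and the interaction was -2.47 (SE 1.05, adjusted p = 0.880). Without the 3 libraries with natural killer or macrophage markers the difference in 6DKO was 2.86, with 1 library in 6DKO IL-33. Leaving out 1 library gave 0.84 (without 6DKO PBS replicate 1) to 2.63 (without 6DKO PBS replicate 2) for it and -3.51 to -1.73 for the interaction. The WT call held in 15 of 15 alternatives with adjusted p from 0.00176 to 0.0391. Its size rests on the 1 added to values near 0, and it was 7.45 with 0.1 added (adjusted p = 0.0121). The genotype difference of Crmp1 under PBS, 2.06 (adjusted p = 0.286, higher than the WT mean in 2 of 3), passed the test in 1 of 16 alternatives, without 6DKO PBS replicate 1 (3.10, adjusted p = 0.00965; 0.00965 to 0.884 over the alternatives). At an unadjusted p under 0.05 there were 9 of the 34 for IL-33 in WT, against 17.6% of all genes. In the other 5 comparisons limma called 0 of the 34. At an unadjusted p under 0.05 these had 6 for genotype under PBS, against 12.9% of all genes, 6 for IL-33 in 6DKO, against 15.2%, 3 for the interaction, against 5.58%, and 0 for genotype under IL-33 and over both treatments. All 5 genes of reverse signalling by class 6 semaphorins (Abl1, Enah, Evl, Vasp and Pparg) were tested and 0 called, with 0 at an unadjusted p under 0.05. Pparg stood at 92.6 to 218.4 FPKM.

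Over the 12 libraries, which fall into 4 groups, the genes most like Sema6d among 7412 with a mean of at least 5 FPKM included Apoa1bp (Pearson r = 0.881, Spearman rho = 0.825), Adamts13 (0.880 and 0.825), Il2rg (0.816 and 0.832) and Gm19757 (0.8004 and 0.706). Those most like Plxna1 were Ccdc28a (r = 0.944, rho = 0.832), 2810001G20Rik (0.919 and 0.839), Poc1b (0.901 and 0.860), Surf2 (0.896 and 0.762) and Smad5 (0.8895 and 0.804). Without the 2 libraries farthest from the median, r was 0.6715 to 0.812 for the genes named beside Sema6d and 0.708 to 0.894 for those beside Plxna1. Neither the treatment nor the number of genes detected was taken out of these correlations.

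The members lie apart in the genome (GRCm38). Sema6d spans chr2:124089969-124667770 on the plus strand and Sema4a chr3:88435959-88461182 on the minus strand. Plxna1 (chr6:89316314-89362620) and Plxnd1 (chr6:115954811-115995005) share a chromosome and the minus strand. Sema4d spans chr13:51685529-51793747 (minus), Sema4b chr7:80186841-80226527 (plus), Sema7a chr9:57940112-57962865 (plus), Plxnc1 chr10:94790866-94944835 (minus), Plxnb2 chr15:89155549-89180788 (minus) and Nrp1 chr8:128358604-128503363 (plus). Exons of Plxna1 overlap the antisense gene Gm26811 and exons of Plxnc1 overlap Gm48718 on the same strand. Neither gene is in the files, and whether the libraries were stranded is not settled. The annotated microRNAs within exons of Sema4a and Nrp1, Mir7011 and Mir1903, were listed at 0 in all libraries.

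Promoter windows, from 250 bases before to 50 after an annotated start, were taken from a RefSeq table (GRCm38.p6), in which 9 of the 10 members were matched, with 17 windows, and Plxna1 was not. They were searched on both strands for a GATA motif (AGATAA or TGATAA), an AP-1 motif (TGANTCA) and an NF-kB motif (GGG and TTTCC with any 2 bases between), motifs of factors known in ILC2 identity and in IL-33 receptor signalling. GATA letters were in 1 of the 17 windows, the second start of Sema6d, against 18.6% of all 32851 windows. AP-1 letters were in 1, at Sema4d (chr13:51748761-51749060, minus), against 7.81%, and NF-kB letters in 0, against 1.63%. In GC content 14 of the 17 windows lay above the median window at 52.7%, the highest being Sema4b at 71.7%. Shown here are the starts of Sema6d, since its transcript was still measured in 6DKO libraries, and the outermost start of Sema4a, the member that fell with IL-33. Capitals mark the GATA letters, and a match describes the letters only.
Sema6d, first start, GRCm38.p6 chr2:124089719-124090018, plus strand: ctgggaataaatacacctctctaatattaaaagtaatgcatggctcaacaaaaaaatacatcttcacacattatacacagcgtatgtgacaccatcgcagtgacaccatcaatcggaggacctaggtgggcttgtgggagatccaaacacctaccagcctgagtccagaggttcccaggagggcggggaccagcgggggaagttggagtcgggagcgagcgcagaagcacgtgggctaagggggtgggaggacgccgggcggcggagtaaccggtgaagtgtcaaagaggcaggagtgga
Sema6d, second start, GRCm38.p6 chr2:124653331-124653630, plus strand: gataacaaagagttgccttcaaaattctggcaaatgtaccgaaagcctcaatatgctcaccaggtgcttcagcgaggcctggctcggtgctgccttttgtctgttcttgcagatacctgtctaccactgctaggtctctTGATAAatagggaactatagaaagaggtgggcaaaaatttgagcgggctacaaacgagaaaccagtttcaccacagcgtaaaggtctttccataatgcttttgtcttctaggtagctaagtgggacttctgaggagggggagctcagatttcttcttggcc
Sema4a, outermost start, GRCm38.p6 chr3:88461133-88461432, minus strand: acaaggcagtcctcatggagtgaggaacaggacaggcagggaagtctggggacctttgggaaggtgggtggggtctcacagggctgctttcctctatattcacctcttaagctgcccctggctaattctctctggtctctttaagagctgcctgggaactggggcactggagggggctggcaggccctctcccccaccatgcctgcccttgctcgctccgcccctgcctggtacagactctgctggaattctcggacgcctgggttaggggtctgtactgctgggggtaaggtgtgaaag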

How the data were processed

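RNA of 12 libraries of sorted lung ILC2s (4 groups of 3) was analysed from the FPKM values that the authors deposited. Their processing notes name TopHat2 2.1.1, Bowtie2 and Cuffdiff 2.2.1 on mm10, and the study's methods another TopHat version and Cuffnorm in place of Cuffdiff. The members and gene lists were chosen with earlier results of these data known. The named genes are the members, other family genes with a group mean of at least 1 FPKM, list genes past the threshold, and genes among the 5 most like Sema6d and Plxna1. Genes whose mean reached 0.5 FPKM, and members above 0 in any library, were fitted as log2(FPKM + 1) with limma 3.58.1 in R 4.3.3 (4 group means, 8 residual degrees of freedom, trended variance), and p-values were adjusted over all 11396 genes (Benjamini-Hochberg, threshold 0.05). Adding 1 understates the fold changes of weakly expressed genes. Single members were also compared by two-sided exact permutation tests (20 assignments for 3 libraries against 3, 400 over both treatments). Alternatives were a pseudocount of 0.1, a minimum of 2 FPKM or none, quantile normalization, median ratio scaling, an untrended variance, array weights, a replicate block, only the groups compared, and leaving out each library. The files hold no read counts, so depth gives no interval. Python 3.11.15 made the summaries and figures.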

Additional observations from a re-analysis of the deposited data

How the results depend on the processing

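Over 945 alternative values of the 54 fold changes of the 9 tested members, 875 kept their direction and their side of the threshold, 3 were 0 and so had no direction (all Plxnb2, for genotype under PBS without WT PBS replicate 3, and for IL-33 in 6DKO without 6DKO IL-33 replicate 3 or without the 3 libraries named below), 4 kept the direction and lost the call (all Sema4a for IL-33 in 6DKO), and 63 turned their sign. Of the 666 that concern genotype or the interaction, limma put 0 past the threshold, against 0 in the fit reported and 1 member at an unadjusted p under 0.05 in each genotype comparison. The largest value that turned was 0.81 on the log2 scale, in scarce members; the cause was not tested. The files hold no read counts, so the limit that depth sets on these members cannot be given, and PBS libraries listed more weakly expressed genes at 0. The fit reported does not pair libraries by the replicate numbers of the labels. Deviations of libraries with the same number correlated across genes by -0.047 to 0.025. With so few libraries this cannot show whether the numbers mark a shared batch. With the replicate block the number of all genes called was 15 for genotype under PBS and 1 for the interaction, and Sema4a remained called for IL-33 (adjusted p = 0.0147 in WT and 0.0475 in 6DKO, within 0.00223 to 0.0264 and 0.0168 to 0.407 over the alternatives).

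Values that turned their sign are log2 fold changes. With a pseudocount of 0.1, Sema4b was 0.45 for genotype under PBS and 0.21 for genotype over both treatments, where its exact permutation p was 0.885. With quantile normalization, Sema4b was 0.34 for genotype under PBS, -0.30 for IL-33 in 6DKO and 0.10 for genotype over both treatments. There Plxnd1 was -0.81 for IL-33 in WT and -0.64 for IL-33 in 6DKO, Plxnb2 was -0.21 for IL-33 in 6DKO and Plxna1 was -0.068 for genotype over both treatments. The exact permutation p was then 0.81 for Sema4b and 0.865 for Plxna1. With array weights, Sema4b was 0.36 for genotype under PBS and 0.17 for genotype over both treatments, Plxnd1 was -0.14 for IL-33 in WT and Plxna1 was -0.043 for genotype over both treatments.

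Without the 3 libraries with natural killer or macrophage markers, an alternative chosen after seeing the data that leaves 6DKO IL-33 with 1 library assumed to vary like the other groups, genotype under IL-33 was 0.020 for Sema4a, -0.076 for Plxnc1, 0.25 for Plxnd1 and -0.085 for Nrp1. Genotype under PBS was 0.20 for Sema4b, and genotype over both treatments was 0.062 for Sema4b, -0.27 for Plxna1 and 0.0035 for Plxnd1. The number of members called for IL-33 in 6DKO was 0, and that of all genes called was 21 for genotype under IL-33, 10 for genotype under PBS, 31 for IL-33 in 6DKO and 14 for the interaction. The fit had fewer libraries; the cause was not tested further.

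The number of all genes called moved in these further alternatives. A pseudocount of 0.1 gave 2 for genotype under IL-33 and 5 for the interaction. No filter gave 33 for genotype under PBS and 9 for genotype over both treatments. Quantile normalization gave 0 for genotype under IL-33 and 36 for genotype under PBS. An untrended variance gave 7 for the interaction and 0 members for IL-33 in 6DKO. Array weights gave 56 for genotype under IL-33 and 1 for genotype under PBS. Fitting only the groups compared gave 15 for genotype under IL-33, 1 for genotype under PBS and 199 for IL-33 in 6DKO.

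Leaving out each library in turn gave these ranges where a sign or a count changed. For genotype under IL-33 they were -0.072 to 0.0095 for Sema4b, -0.42 to 0.11 for Plxna1, -0.18 to 0.034 for Plxnb2, -0.030 to 0.25 for Plxnc1, -0.32 to 0.11 for Plxnd1 and -0.032 to 0.13 for Nrp1. For genotype under PBS they were -0.78 to 0.70 for Sema4b, -0.20 to 0.995 for Plxna1 and -0.92 to 0.22 for Plxnd1. For genotype over both treatments they were -0.40 to 0.34 for Sema4b, -0.065 to 0.19 for Sema4d, -0.21 to 0.39 for Plxna1 and -0.53 to 0.042 for Plxnd1. The exact permutation p over both treatments ranged from 0.025 to 0.165 for Sema4a, 0.46 to 1 for Sema4b, 0.47 to 0.965 for Sema4d, 0.45 to 0.96 for Plxna1, 0.185 to 0.905 for Plxnd1 and 0.04 to 0.2 for Nrp1.

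For IL-33 in WT the ranges were -0.23 to 1.24 for Sema4b, -0.29 to 0.90 for Plxna1, -0.48 to 0.14 for Plxnb2, -0.58 to 0.56 for Plxnd1 and -0.045 to 0.43 for Nrp1. For IL-33 in 6DKO they were -0.044 to 1.29 for Sema4b, -0.0045 to 0.51 for Sema4d, -0.67 to 0.016 for Plxna1 and -0.083 to 0.56 for Plxnd1. For the interaction they were -0.72 to 0.76 for Sema4b, -0.11 to 0.51 for Plxnb2 and -0.35 to 0.79 for Plxnd1. The number of members called for IL-33 in 6DKO was 0 to 1, being 0 without 6DKO IL-33 replicate 2 or 3. All genes called ranged from 0 to 3 for genotype under IL-33 and from 78 (without WT PBS replicate 2) to 213 (without WT PBS replicate 3) for genotype under PBS. They ranged from 203 (without WT IL-33 replicate 1) to 598 (without WT PBS replicate 3) for IL-33 in WT, and from 122 (without 6DKO IL-33 replicate 2) to 476 (without 6DKO PBS replicate 2) for IL-33 in 6DKO. For the interaction they ranged from 0 (without WT IL-33 replicate 1) to 25 (without WT PBS replicate 3), and for genotype over both treatments from 7 (without 6DKO IL-33 replicate 1) to 44 (without WT PBS replicate 3).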
